A study of Mus musculus with 54 samples.

Results

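Replication-dependent histone genes were described in prostate tumours of genetically engineered mouse models. The members were all rows of the expression table whose gene symbol begins with Hist1h, Hist2h, Hist3h or Hist4h, and the rule found 5 of 16772 genes: Hist1h2an and Hist1h2ao (histone H2A), Hist1h2bp (histone H2B), and Hist1h4m and Hist1h4n (histone H4). The annotation GENCODE M21 on GRCm38 holds 70 genes with such symbols, and the other ones, Hist1h1c, Hist1h2bc, Hist2h2be, Hist1h1t and Hist1h2ba among them, were not analysed here. No H1 or H3 gene of this family was a row.

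The tissue came from the models DKO and TKO, and from DKO_EE and DKO_EP, which add Ezh2 deletions to DKO. Ezh2 is the enzyme that places the repressive H3K27 methyl mark. The labels give no alleles for DKO, TKO, EE or EP, no promoter that drives a recombinase and no strain, which limits what each group stands for. Of the intact mice, 12 were 12 weeks old (4 DKO, 4 DKO_EE, 4 DKO_EP) and 14 had endstage disease, namely 3 DKO animals (35 to 46 weeks), 8 DKO_EE (28 to 42 weeks) and 3 DKO_EP (39 to 52 weeks). Another 14 had been castrated at 12 weeks and had reached endstage, namely 4 DKO animals (39 to 99 weeks), 5 DKO_EE (35 to 59 weeks) and 5 DKO_EP (34 to 37 weeks). Castrated TKO mice received vehicle (4 animals, 15 to 19 weeks) or CPI1688, named as an Ezh2 inhibitor (4 animals, 18 to 19 weeks). No label says that animals were pooled. In all, 54 libraries came from 48 animals in 11 groups, and the 2 pieces of each of 6 intact tumours were averaged.

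Replication-dependent histone genes supply the histones that package newly copied DNA. Their mRNA is made mainly in S phase, has no introns as a rule, and usually ends in a conserved stem-loop in place of a poly(A) tail. The stem-loop is bound by Slbp, and U7 small nuclear RNA and its proteins guide the cut that forms the end. Libraries were prepared from total RNA depleted of ribosomal RNA, so no poly(A) tail was needed for capture. Mki67 encodes the proliferation marker Ki-67, which is present in cycling cells.

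The 5 genes lie on chromosome 13 (GRCm38), within 45.4 kb of the Hist1 cluster, and no other gene of the table lies between them. Hist1h2an spans 21786826 to 21787218 on the minus strand, and Hist1h2bp spans 21787461 to 21789213 on the plus strand, with up to 2 exons. Hist1h2ao spans 21810465 to 21810944 (plus), Hist1h4m 21811746 to 21812147 (plus) and Hist1h4n 21831767 to 21832196 (minus), each annotated with 1 exon. The nearest genes of the table are Zkscan8, 255.7 kb to the left, and Zfp184, 112.9 kb to the right. The annotation RefSeq names the 5 genes H2ac22, H2bc22, H2ac23, H4c17 and H4c18 in this order.

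The 3′ ends are shown first because they carry the mark of the family. Capitals mark the stem-loop, found as GGNNNTTTTCAGNNCC on the transcript strand of the annotation.
Hist1h2ao: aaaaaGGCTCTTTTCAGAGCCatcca
Hist1h2bp: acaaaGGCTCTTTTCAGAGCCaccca
Hist1h4m: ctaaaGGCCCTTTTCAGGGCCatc
Hist1h4n: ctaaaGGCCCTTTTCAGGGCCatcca
The motif was in a transcript of 35 of the 70 annotated genes of the family and in 32 of 16750 genes of the table that had a transcript (0.191%). Both H4 genes carry one stem-loop sequence, and Hist1h2ao and Hist1h2bp carry another that differs in the stem. The annotated Hist1h2an transcript, of 393 bases, holds no match. Only annotated transcripts were searched, so a stem-loop beyond an annotated end gives no match. Hist1h2bp has a second transcript, of 621 bases, with no match and with the polyadenylation signal AATAAA in its last 40 bases.

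Hist1h4m and Hist1h4n are near copies, and the next lines show the single base at which their transcripts differ. The Hist1h4m transcript, of 402 bases, differs from the first 402 bases of Hist1h4n at 1 base (99.75% identity), written G36A for Hist1h4m to Hist1h4n and counted from 1 at the 5′ end. Bases 21 to 50 are printed, with the differing base in capitals, 3 bases before the start codon at base 39.
Hist1h4m: tacagttttgtcttcGtcatgtctggtcgt
Hist1h4n: tacagttttgtcttcAtcatgtctggtcgt
The Hist1h4n transcript, of 430 bases, runs 28 bases further at its 3′ end. Of the 50-base windows of a transcript, those found in no other annotated gene made up 10.2% for Hist1h4m, 14.44% for Hist1h4n, 6.5% for Hist1h2ao, 14.24% for Hist1h2an and 55.86% for Hist1h2bp. Values of single members are therefore uncertain, those of Hist1h2ao, the H4 genes and Hist1h2an above all. Reads shared between copies are divided by the authors' quantification.

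Promoters are shown because the H2A and H2B genes beside each other share theirs. The start sites of Hist1h2an and Hist1h2bp lie 240 bases apart and point away from each other, and their 300-base windows (250 bases before the start site to 50 after) overlap by 261 bases. RefSeq sequences on GRCm38.p6 are printed for Hist1h2bp (chr13:21787238-21787537, plus strand) and Hist1h4m (chr13:21811496-21811795, plus strand), with TATAAA and CCAAT in capitals on either strand.
Hist1h2bp: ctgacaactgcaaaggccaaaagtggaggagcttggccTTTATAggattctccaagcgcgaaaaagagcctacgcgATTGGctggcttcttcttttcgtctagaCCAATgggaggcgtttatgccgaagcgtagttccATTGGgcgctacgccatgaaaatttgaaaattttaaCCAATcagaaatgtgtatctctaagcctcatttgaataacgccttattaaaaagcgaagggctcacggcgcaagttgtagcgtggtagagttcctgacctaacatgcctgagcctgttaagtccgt
Hist1h4m: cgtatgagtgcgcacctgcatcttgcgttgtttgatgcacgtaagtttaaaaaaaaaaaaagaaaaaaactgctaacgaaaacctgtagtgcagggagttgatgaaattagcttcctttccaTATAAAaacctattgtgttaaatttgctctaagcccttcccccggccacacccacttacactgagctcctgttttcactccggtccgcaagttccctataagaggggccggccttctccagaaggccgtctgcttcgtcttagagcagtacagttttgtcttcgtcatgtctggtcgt
The shared stretch holds 4 CCAAT matches, the Hist1h2ao window 3 and the H4 windows 0. TATAAA was in 4 of the 5 windows, at base -33 from the start site of Hist1h2an and at -128 and -127 in Hist1h4m and Hist1h4n. The match of the Hist1h2bp window is the Hist1h2an one on the other strand. In all 32851 RefSeq promoter windows, 13.62% held TATAAA, 37.41% CCAAT and 1.74% the octamer ATTTGCAT, which no member's window held. The H4 windows, compared over 299 bases at a shift of 1 base, differ at 1 base (99.67% identity). That base is the G36A one given above, which lies after the start site, so the compared bases before it are the same.

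Read totals per library ran from 3687048 to 9741808, and a value is log2 of the authors' normalized count plus 1. Over the 48 animals Hist1h2bp had a mean of 7.17, Hist1h4n 6.93, Hist1h4m 6.89, Hist1h2an 6.72 and Hist1h2ao 2.53, and these levels are not per length. The first 4 lay near the middle of all genes, with 46.05 to 52.1% of genes lower. Hist1h2ao was lower than most (16.35% of genes lower), and its SD over animals was 2.12, above that of 92.21% of genes. Mki67 had a mean of 13.2. At 12 weeks Ezh2 ranged from 7.33 to 7.79 with the DKO_EE genotype, from 7.76 to 8.57 with DKO_EP and from 8.19 to 8.69 with DKO. At intact endstage these ranges were 7.41 to 8.76, 9.30 to 9.51 and 9.47 to 9.88, and at castrated endstage 8.02 to 9.19, 8.58 to 9.38 and 8.43 to 9.71, where all 3 overlap. A gene-level value does not separate deleted exons from the rest. Lars2, a mitochondrial leucyl-tRNA synthetase gene, took over 10% of the reads in 5 of 12 intact DKO_EE libraries and in 5 of 5 intact DKO_EP libraries, and nowhere else. The 7 prostate epithelium markers had a summed log2 level of 12.17 to 15.70 over all animals, with none at 0 throughout a group.

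**Figure D1:**
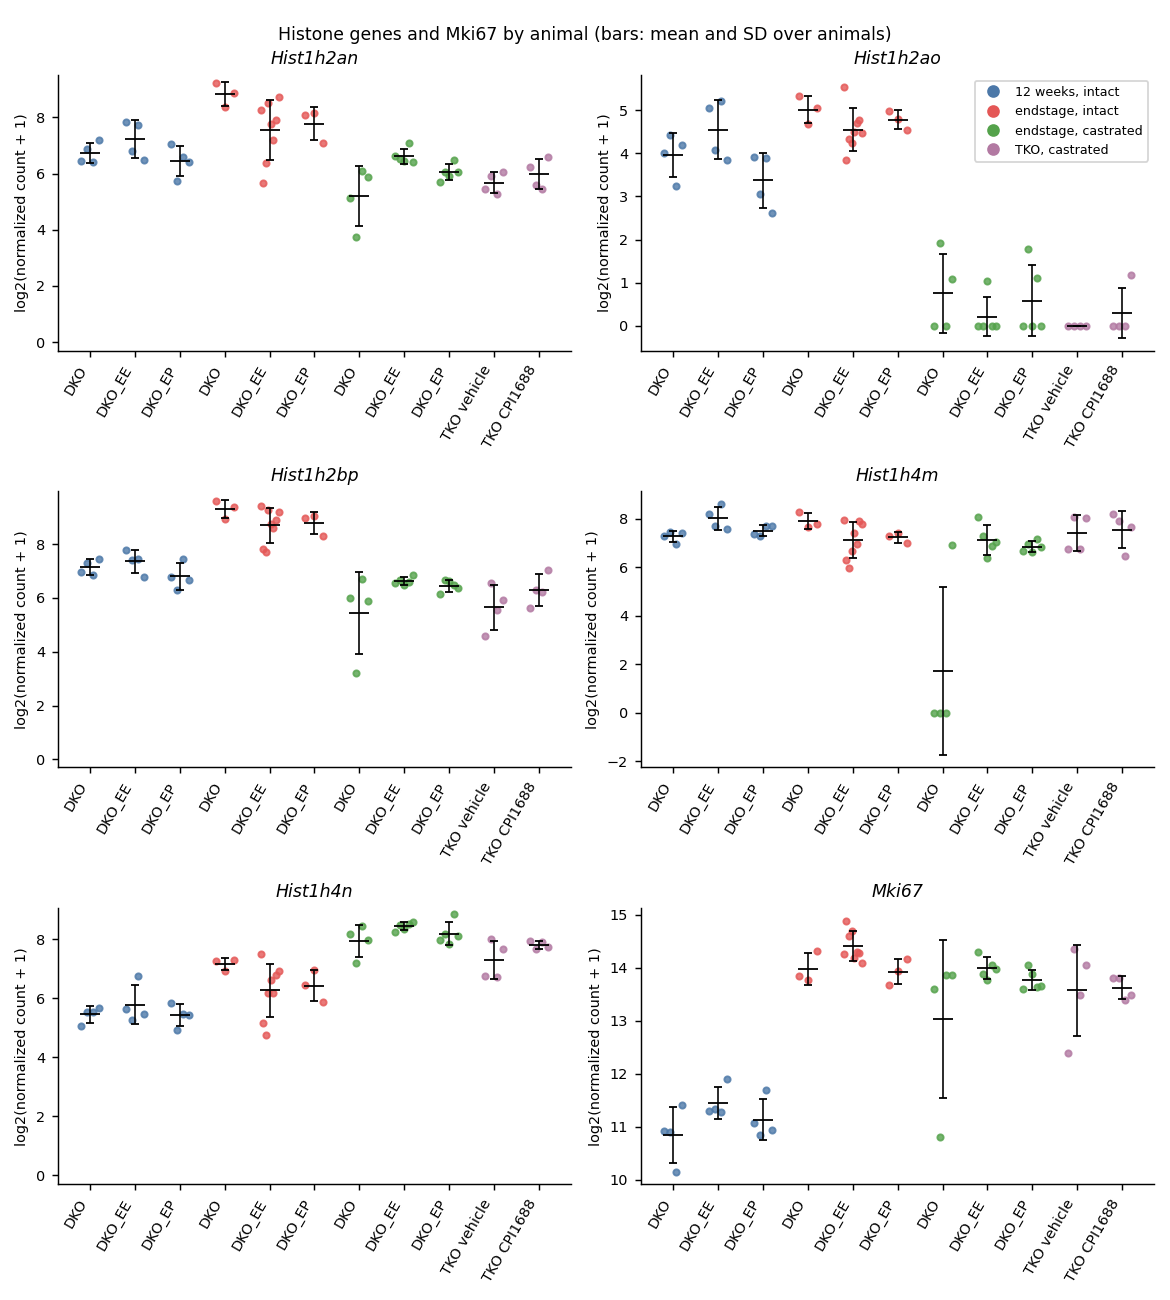
Level of each histone gene and of Mki67, as log2(normalized count + 1), in every animal of the 11 groups; points are animals coloured by setting, and bars give the mean and SD. Hist1h2ao stands between 2.62 and 5.54 in every intact animal and at 1.91 or less in every castrated one, and Hist1h4m is at 0 in 3 castrated DKO animals.

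The first comparison asked how the genes changed from 12 weeks to endstage in intact mice. H2B and one or both H2A genes rose in DKO and DKO_EP, Hist1h4n rose in both, and in DKO_EE only Hist1h2bp passed the test. Hist1h4m, the other H4 gene, passed in none of the 3 genotypes. Of the 5 members, 3 rose in DKO, 1 in DKO_EE and 4 in DKO_EP, and 0 fell. A call is an adjusted p under 0.05 (limma, Benjamini-Hochberg over every gene), and 36.7% of all genes were called in DKO, 50.6% in DKO_EE and 44.2% in DKO_EP. The median log2 fold change of the 5 genes was 1.72, 0.34 and 1.33, against -0.04, -0.07 and -0.06 for all genes.

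Hist1h2bp encodes an H2B protein. At 12 weeks its log2 values were 6.97, 7.31, 6.86 and 7.47 in DKO, 7.80, 7.41, 7.45 and 6.77 in DKO_EE, and 6.80, 6.29, 7.47 and 6.67 in DKO_EP. At intact endstage they were 9.60, 8.95 and 9.39 in DKO, from 7.71 to 9.42 in DKO_EE and 8.96, 9.06 and 8.30 in DKO_EP. Endstage animals were above all 12-week animals of their genotype in DKO and DKO_EP, and the groups overlapped in DKO_EE. The log2 fold change was 2.16 in DKO (SE 0.48, adjusted p = 0.00055), 1.35 in DKO_EE (SE 0.39, adjusted p = 0.00387) and 1.97 in DKO_EP (SE 0.48, adjusted p = 0.00112), or 4.46-fold, 2.55-fold and 3.92-fold.

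Hist1h2an, the H2A gene that faces Hist1h2bp, had log2 values of 6.47, 6.87, 6.40 and 7.20 at 12 weeks and 9.23, 8.38 and 8.87 at endstage in DKO. It rose by 2.09 there (SE 0.51, adjusted p = 0.00131), with no overlap of the groups. In DKO_EP it went from 7.06, 5.75, 6.61 and 6.40 to 8.09, 8.15 and 7.11, a rise of 1.33 (SE 0.51, adjusted p = 0.0314) without overlap. The 8 DKO_EE animals at endstage were spread over 5.66 to 8.74, and their 12-week animals lay within this range. Their difference of 0.34 did not pass (SE 0.41, adjusted p = 0.511).

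The H2A gene Hist1h2ao was covered by 5 to 40 reads in each 12-week library and 6 to 63 in each intact endstage library. It rose in DKO_EP from 3.92, 3.07, 3.88 and 2.62 to 5.0, 4.81 and 4.55, by 1.41 (SE 0.47, adjusted p = 0.0135). The groups did not overlap there. The difference was 1.05 in DKO (SE 0.47, adjusted p = 0.0749) and 0.0037 in DKO_EE (SE 0.38, adjusted p = 1), neither past the test.

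Hist1h4n rose in DKO from 5.05, 5.54, 5.54 and 5.68 to 7.26, 6.94 and 7.30, by 1.72 (SE 0.42, adjusted p = 0.00128). In DKO_EP it rose from 5.84, 4.93, 5.47 and 5.43 to 6.45, 6.95 and 5.89, by 1.01 (SE 0.42, adjusted p = 0.0466). The groups did not overlap in either genotype. The Hist1h4n call in DKO_EP was lost with an offset of 10 (adjusted p = 0.0537) and with limma-voom (adjusted p = 0.0725). It was also lost with only the groups compared (adjusted p = 0.0588) and with the first piece of each animal (adjusted p = 0.203). For its near copy Hist1h4m the differences were 0.63 (SE 0.83, adjusted p = 0.586) in DKO, -0.91 (SE 0.66, adjusted p = 0.257) in DKO_EE and -0.27 (SE 0.83, adjusted p = 0.814) in DKO_EP. Both genes are given together further on as a sum, since the division of reads between them is uncertain.

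Mki67 rose by 3.13 in DKO, 2.96 in DKO_EE and 2.79 in DKO_EP, more than any of the 5 genes in the same genotype; the differences between genes were not tested. With Mki67 as a covariate no histone gene was called. The log2 fold change of Hist1h2bp was then -0.12, -0.80 and -0.054, but 1.01, 0.27 and 0.95 without the 99-week castrated DKO animal, so the turn in sign rests on that animal. Others stayed positive with the covariate, in DKO Hist1h4n at 1.14 and Hist1h2an at 1.02, and in DKO_EP Hist1h2ao at 2.22 (adjusted p = 0.0779). In DKO_EP the count of 4 was 2 with only the first piece of each animal. It ran from 1 (without DKO_EP intact endstage replicate 1 or 12-week replicate 4) to 4 with one animal left out. Without intact endstage replicate 2 or 12-week replicate 2 it was 2. Hist1h2bp kept its call in the fits with the first library and with one animal left out.

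Factors that make and process histone mRNA rose over the same interval: of 18 on the list, 13 were higher in DKO, 14 in DKO_EE and 13 in DKO_EP, with 1 lower in DKO_EE. In DKO the leading ones were Ccne1 and Ccne2, the E-type cyclins that switch on histone transcription at the start of S phase through Cdk2, at 2.80 (adjusted p = 4.81e-08) and 3.93 (adjusted p = 8.60e-07). Histone chaperones, which carry new histones to DNA, were higher for 6, 7 and 7 of 9 in DKO, DKO_EE and DKO_EP, and lower for 0, 1 and 1. Asf1b rose by 3.22 and Chaf1b, a subunit of the chromatin assembly factor, by 2.07 in DKO. Of 11 listed replication-independent histone genes 4 were analysed, H3f3a, H3f3b, H1f0 and Cenpa, and all 4 were higher in each genotype, with Cenpa, the centromeric H3, at 3.1 and H3f3a at 1.52 in DKO. DNA replication genes were higher for 20, 20 and 19 of 20, with Rrm1 at 1.83 and Cdc6 at 2.16 in DKO. Median log2 fold changes in DKO were 0.87 for the mRNA factors, 1.01 for the chaperones and 1.69 for the DNA replication genes.

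Cell type markers moved over this interval too. All 6 skeletal muscle markers were lower in DKO (summed log2 level 13.42 to 18.06 at 12 weeks and 7.04 to 10.89 at endstage, with Myh4 at 0), 1 in DKO_EE and 5 in DKO_EP. All 5 smooth muscle markers were lower in each genotype, in DKO from a summed level of 11.68 to 14.04 to one of 9.13 to 11.50. All 5 neuroendocrine markers were higher in each, in DKO from 4.53 to 8.49 to 12.84 to 13.47. Of 7 prostate epithelium markers, 3, 3 and 2 were lower. Fibroblast markers were lower for 0, 6 and 2 of 6, and T and NK cell markers for 1, 5 and 4 of 5. In DKO_EE 3 of 4 adipocyte and 3 of 5 macrophage markers were lower. Of 4 endothelial markers 1 was higher in each genotype, Vwf, at 2.37, 3.08 and 3.23. Their part in the histone results was not tested, and in bulk tissue fewer cells of a type and less RNA per cell cannot be told apart.

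**Figure D2:**
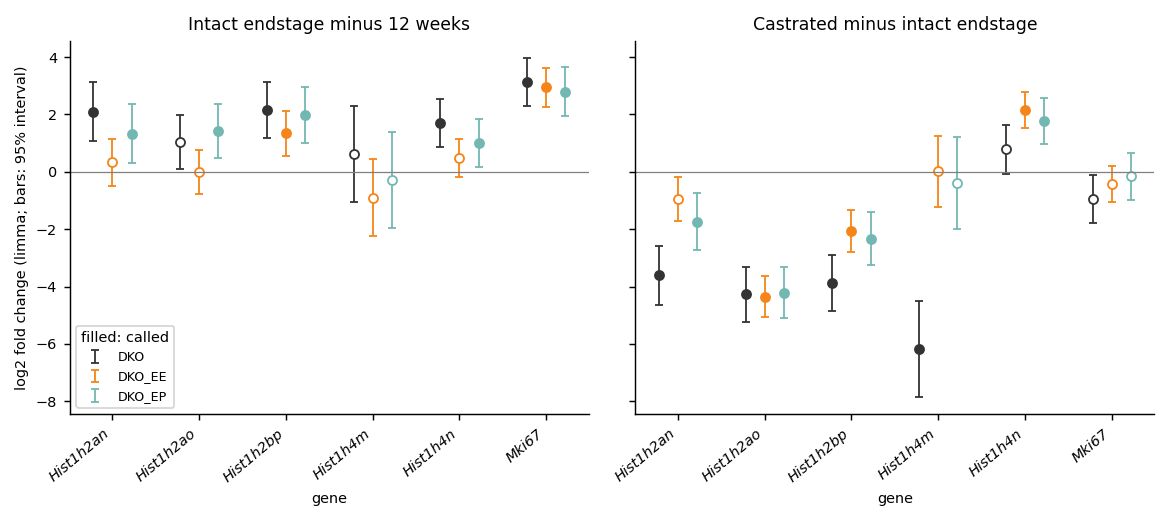
log2 fold change by limma with its 95% interval for each histone gene and Mki67, in DKO, DKO_EE and DKO_EP, for intact endstage minus 12 weeks and for castrated minus intact endstage; filled points passed the test. Hist1h2bp rose in the first panel and fell in the second in all 3 genotypes, and Hist1h4m fell by 6.18 in castrated DKO.

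Castrated and intact endstage tumours were compared next. Hist1h2ao and Hist1h2bp fell in all 3 genotypes, Hist1h2an fell in DKO and DKO_EP, and Hist1h4m fell in DKO, while Hist1h4n rose in DKO_EE and DKO_EP. Members called numbered 4 of 5 in DKO (0 higher, 4 lower), 3 in DKO_EE (1 higher, 2 lower) and 4 in DKO_EP (1 higher, 3 lower). Of all genes, 13.9%, 16.5% and 9.87% were called. The median log2 fold change of the 5 members was -3.87, -0.94 and -1.73, and that of all genes -0.02, -0.03 and 0. These comparisons use the same intact tumours as the ones above, so their values share those animals. Sequencing batch is not in the labels, and a batch that followed castration cannot be told apart from it.

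Reads assigned to Hist1h2ao were nearly absent from every castrated tumour. Of its 50-base windows, 93.5% are shared with Hist1h2ap, which is not a row, and reads given to that copy were not analysed here. Castrated DKO animals had 0.00, 1.91, 0.00 and 1.08, DKO_EE animals 0.00, 0.00, 1.03, 0.00 and 0.00, and DKO_EP animals 0.00, 1.78, 0.00, 1.10 and 0.00, which is 0 to 2 reads per library. Intact endstage animals had 4.68 to 5.33, 3.85 to 5.54 and 4.55 to 5.0, with no overlap. Summed over libraries and scaled for depth, intact over castrated was 33.4 in DKO (3 reads in castrated animals against 107, 95% counting interval 11.1 to 164), 119 in DKO_EE (1 read against 274, 21.1 to 4699) and 37.7 in DKO_EP (3 reads against 72, 12.4 to 187). These intervals cover counting error only, and how reads were divided between copies was not tested. By limma the log2 fold change was -4.28 (SE 0.47, adjusted p = 2.11e-09), -4.35 (SE 0.35, adjusted p = 2.18e-13) and -4.21 (SE 0.45, adjusted p = 9.17e-10). These sizes depend on the offset of 1, and were -1.93, -1.70 and -1.78 with an offset of 10, still past the test. The gene was as low in castrated TKO tumours, at 0 in the 4 vehicle animals and at 0, 0, 0 and 1 read with CPI1688.

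Hist1h2bp had log2 values of 5.99, 3.21, 6.71 and 5.87 in castrated DKO, 6.47 to 6.85 in DKO_EE and 6.13 to 6.66 in DKO_EP. All castrated animals were below all intact endstage animals, the lowest of which had 7.71. It fell by 3.87 in DKO (SE 0.48, adjusted p = 4.52e-08), by 2.07 in DKO_EE (SE 0.36, adjusted p = 2.24e-05) and in DKO_EP the log2 fold change of Hist1h2bp was -2.32 (SE 0.46, adjusted p = 0.000262). Castrated DKO replicate 2, at 3.21, was the animal of 99 weeks, and its Mki67 was 10.80 against 13.59 to 13.86 in the other animals of its group.

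Hist1h2an had 5.12, 3.74, 6.10 and 5.87 in castrated DKO, 6.64, 6.52, 6.44, 7.07 and 6.40 in DKO_EE, and 5.71, 6.07, 5.91, 6.48 and 6.07 in DKO_EP. It fell by 3.61 in DKO (SE 0.51, adjusted p = 6.00e-07) and by 1.73 in DKO_EP (SE 0.49, adjusted p = 0.0134), with no overlap in either. The DKO_EP call was lost without intact endstage replicate 1 or 2 (adjusted p = 0.0783 and 0.0961). It was also lost with only the first piece of each animal (adjusted p = 0.0627). In DKO_EE the groups overlapped and the difference of -0.94 did not pass (SE 0.38, adjusted p = 0.0906).

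Hist1h4n went the other way from the H2A and H2B genes. Castrated animals had 8.16, 7.19, 8.46 and 7.99 in DKO, 8.25, 8.48, 8.34, 8.52 and 8.58 in DKO_EE, and 7.97, 8.18, 7.85, 8.84 and 8.10 in DKO_EP. It rose by 2.17 in DKO_EE (SE 0.31, adjusted p = 5.95e-07) and by 1.76 in DKO_EP (SE 0.40, adjusted p = 0.00147), where the groups did not overlap. In DKO the groups overlapped and the difference was 0.78 (SE 0.42, adjusted p = 0.232).

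Hist1h4m was at 0 reads in castrated DKO replicates 1, 2 and 3 and at 109 reads, a log2 value of 6.93, in replicate 4. The 3 intact DKO tumours had 8.28, 7.67 and 7.79. The log2 fold change was -6.18 (SE 0.83, adjusted p = 2.12e-07), and it was -3.72 with an offset of 10. The call was lost when only these 2 groups were fitted (adjusted p = 0.109). In every other library of the study Hist1h4m had 34 reads or more. In DKO_EE the castrated values of 8.06, 7.30, 6.40, 6.88 and 7.05 overlapped the intact ones of 5.98 to 7.94, with a difference of 0.02 (SE 0.62, adjusted p = 1). In DKO_EP the difference was -0.39 (SE 0.79, adjusted p = 0.901).

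The change of Hist1h4m with castration differed between genotypes by the interaction test. It was 6.20 higher on the log2 scale in DKO_EE than in DKO (SE 1.03, adjusted p = 0.00803) and 5.79 higher in DKO_EP than in DKO (SE 1.15, adjusted p = 0.0417). With an offset of 10 they were 3.73 (adjusted p = 0.0387) and 3.35 (adjusted p = 0.131). Hist1h4m was among the 2 genes called in the first test (0.0119% of genes) and the 4 in the second (0.0238%). The first was lost when only the groups compared were fitted (adjusted p = 0.331) and without intact DKO replicate 1 (0.0832) or castrated DKO replicate 3 (0.0635). The second was lost without any one of the 3 intact DKO, 3 intact DKO_EP or 5 castrated DKO_EP animals and without castrated DKO replicate 1, 2 or 3. The same kind of test on the change from 12 weeks to endstage called 0 members in DKO_EE (0.125% of genes) and 0 in DKO_EP (0.00596%). At an unadjusted p under 0.05 were 2 and 0 members, and 1757 and 427 of 16772 genes. The largest member difference in this test was that of Hist1h2an in DKO_EE, at -1.75 (SE 0.65, adjusted p = 0.312).

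Reads of the H4 pair were then described together. Hist1h4m took 73.12 to 85.76% of the reads of both genes in 12-week animals, 57.32 to 70.51% in intact endstage animals and 0 to 46.74% in castrated DKO, DKO_EE and DKO_EP animals. In castrated DKO the share was 0% in 3 animals, of 227, 105 and 245 reads for both genes, and 32.34% of 337 reads in the other one. A count of 0 allows up to 3 reads per library. In TKO animals the share was 50.31 to 55.96% with vehicle and 26.8 to 54.15% with CPI1688, where replicate 3, at 26.8%, lay within the range of the castrated DKO series. The ranges of the 12-week, intact endstage and castrated DKO-series animals did not overlap.

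The reads of both H4 genes were then summed. The mean log2 value was 7.64 ± 0.19 in DKO at 12 weeks (SD, n = 4), 8.59 ± 0.26 at intact endstage (SD, n = 3) and 8.09 ± 0.63 in castrated animals (SD, n = 4). In castrated DKO the sum was 8.16, 7.19, 8.46 and 8.55, highest in the animal with Hist1h4m reads and next to it in replicate 3. For DKO_EE the mean was 8.31 ± 0.50 (SD, n = 4), 7.76 ± 0.81 (SD, n = 8) and 8.95 ± 0.18 (SD, n = 5) in the same order, and for DKO_EP 7.82 ± 0.21 (SD, n = 4), 7.89 ± 0.34 (SD, n = 3) and 8.67 ± 0.34 (SD, n = 5). The TKO means were 8.35 ± 0.70 for vehicle (SD, n = 4) and 8.73 ± 0.30 for CPI1688 (SD, n = 4). The sum was not tested.

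**Figure D3:**
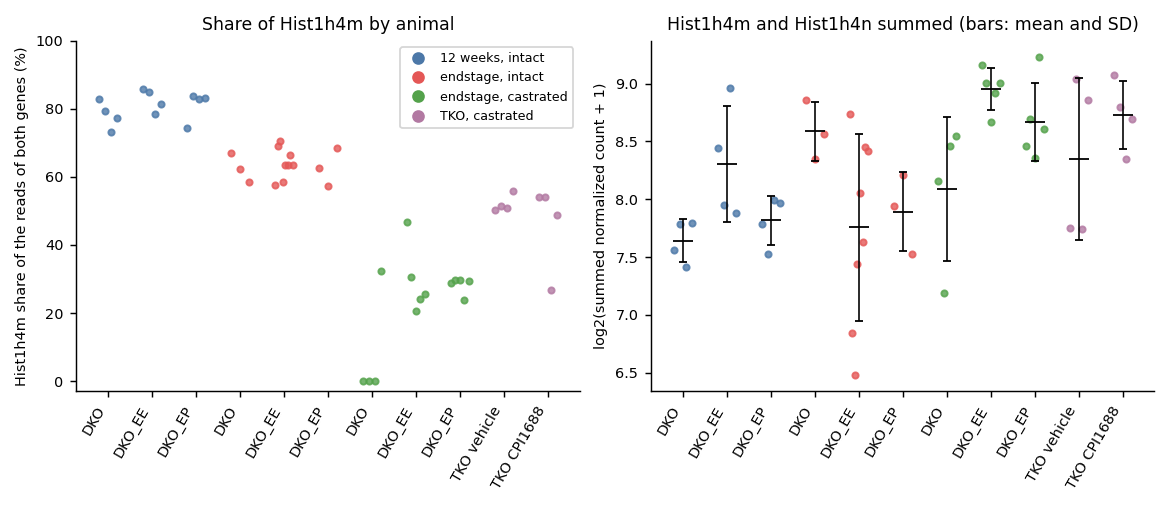
Left, share of the reads of Hist1h4m and Hist1h4n that the deposited table assigns to Hist1h4m (percent, points are animals); right, log2 of the summed normalized count plus 1, with the mean and SD of each group. The share falls in steps from 73.12 to 85.76% at 12 weeks to 0 to 46.74% in castrated DKO, DKO_EE and DKO_EP animals, while the summed level stays between 6.48 and 9.23.

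Mki67 itself did not pass between castrated and intact tumours, at -0.95 in DKO (SE 0.42, adjusted p = 0.135), -0.42 in DKO_EE (SE 0.31, adjusted p = 0.447) and -0.16 in DKO_EP (SE 0.40, adjusted p = 0.93). With Mki67 as a covariate Hist1h4m in castrated DKO against intact DKO kept its call, at -5.61 (adjusted p = 2.93e-06). Of 8 division markers 4 were lower in DKO (median log2 fold change -1.25) and 0 in DKO_EE and DKO_EP, with the mitotic cyclin Ccnb1 at -1.71 (SE 0.47, adjusted p = 0.00879) and its kinase Cdk1 at -1.37 (SE 0.37, adjusted p = 0.00917). The summed log2 level of the division markers was 11.64 to 14.68 in castrated and 14.84 to 15.23 in intact DKO. The 99-week castrated DKO animal had Mki67 at 10.80, and the others of its group had 13.59 to 13.86. No list result without that animal is given here. DNA replication genes were lower for 5, 2 and 1 of 20 and higher for 0, with Pcna, the sliding clamp, at -1.34 and Tyms at -1.20 in DKO. Of the histone mRNA factors, 2, 2 and 1 of 18 were higher and 0, 1 and 0 lower. Hinfp, a transcription factor known for activating H4 genes, rose by 1.36 in DKO (SE 0.15, adjusted p = 3.17e-09), 1.03 in DKO_EE (SE 0.11, adjusted p = 1.28e-09) and 1.15 in DKO_EP (SE 0.14, adjusted p = 5.52e-08). Among the chaperones 2 of 9 were lower in each genotype, and these were Hira, which deposits the variant H3.3, at -1.36, -1.32 and -1.38, and Ipo4, an importin of H3 and H4, at -1.50, -1.37 and -1.74. The log2 fold change of H3f3a, which encodes that variant, was -2.03, -1.08 and -1.32.

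Erythroid markers were the cell type list that moved in all 3 genotypes here. Of 4 markers, 2 were higher in each and 1 was lower in DKO_EE. Hba-a1 was at 0 in every intact animal, at 12 weeks as well as at endstage, and was not at 0 throughout any castrated group. The summed log2 level was 4.63 to 7.58 in intact and 5.21 to 8.42 in castrated DKO, 4.86 to 10.68 and 4.31 to 9.58 in DKO_EE, and 6.07 to 6.40 and 7.78 to 9.38 in DKO_EP. In DKO_EE 1 of 6 fibroblast and 1 of 5 T and NK cell markers were lower, and in DKO 1 of 7 prostate epithelium markers was higher. Their part in the histone results was not tested.

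Genotypes were compared within each setting. At castrated endstage 2 members were higher in DKO_EE than in DKO, Hist1h4m by 5.41 (SE 1.14, adjusted p = 0.0144) and Hist1h2an by 1.41 (SE 0.40, adjusted p = 0.0478). Of all genes, 7.72% were called. With an offset of 10 the Hist1h4m difference was 2.99. The Hist1h4m groups overlapped through DKO replicate 4 (6.93), and the Hist1h2an groups did not. The Hist1h4m call was lost with age as a covariate (4.13, adjusted p = 0.11), as was that of Hist1h2an (1.05, 0.279). With one animal left out, Hist1h4m stayed past the test, while Hist1h2an lost its call without DKO replicate 1 or 2 or any one of the 5 DKO_EE animals. T and NK cell markers (2 of 5 lower, summed log2 level 1.77 to 4.03 in DKO_EE and 3.47 to 6.85 in DKO) and fibroblast markers (3 of 6 lower, 12.51 to 13.77 and 14.13 to 15.32) moved with this comparison, as did 2 of 7 prostate epithelium markers, 1 in each direction, and their part was not tested. No T, NK or fibroblast marker was at 0 in every animal of either group.

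In DKO_EP against DKO at castrated endstage 0 members were called (0.0302% of genes), with 1 at an unadjusted p under 0.05. Of 16558 genes, 2423 had such a p. Hist1h4m differed by 5.12 (SE 1.14, adjusted p = 0.123), and limma called it with all groups in one fit or without DKO replicate 4. At intact endstage 0 members were called in DKO_EE (1.66% of genes) and 0 in DKO_EP (0% of genes). All 5 differences from DKO were negative there. In DKO_EE they ran from -0.47 for Hist1h2ao to -1.27 for Hist1h2an, 1 with an unadjusted p under 0.05. In DKO_EP they ran from -0.24 to -1.04 for the same genes, 0 with such a p. Of 16640 genes, 2793 in DKO_EE and 965 in DKO_EP had such a p. Both comparisons share the DKO tumours. The members varied together at intact endstage, with r from 0.65 to 0.96 between pairs, so their signs are not independent. Lars2 took 0.01 to 0.026% of the reads in these DKO libraries, 0.009 to 35.3% in DKO_EE and 14.2 to 21.6% in DKO_EP, and its part was not tested. At 12 weeks 0 members were called in DKO_EE and 0 in DKO_EP (0% of genes in each), with 1 and 0 at an unadjusted p under 0.05. Of 16626 genes, 796 and 449 had such a p. Hist1h4m at 12 weeks was 8.22, 7.71, 8.61 and 7.59 in DKO_EE and 7.29, 7.45, 6.96 and 7.43 in DKO, without overlap, and the difference of 0.75 did not pass over all genes (SE 0.23, adjusted p = 0.975).

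CPI1688 and vehicle were compared in castrated TKO tumours. No member passed (0% of genes called), and 0 had an unadjusted p under 0.05, against 337 of 16512 genes. The differences were 0.53 for Hist1h4n (95% interval -0.21 to 1.27), 0.15 for Hist1h4m (-0.95 to 1.25), 0.64 for Hist1h2bp (-0.51 to 1.79) and 0.30 for Hist1h2an (-0.58 to 1.17). Hist1h2ao was under 3 reads in each library of both groups, so no fold is given. Vehicle animals differed widely among themselves, with Hist1h4n at 6.75, 8.0, 6.73 and 7.68 and Hist1h4m at 6.76, 8.08, 6.77 and 8.02, while CPI1688 animals had 7.95, 7.68, 7.90 and 7.73 and 8.19, 7.91, 6.46 and 7.66.

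Vehicle-treated TKO tumours were also set against castrated DKO tumours, which differ from them in age as well. Hist1h4m alone of the members was called, higher in TKO by 5.68 (SE 0.77, adjusted p = 2.90e-05, 0.566% of genes called), or 3.24 with an offset of 10. It was lost when only these 2 groups were fitted (adjusted p = 0.91). Hist1h4n differed by -0.66 (SE 0.39, adjusted p = 0.611), and Hist1h2bp and Hist1h2an by 0.21 and 0.47, with adjusted p = 0.952 and 0.84.

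Each member was then set beside Mki67 by animal. Within groups, over all 48 animals, the slope of Hist1h2bp on Mki67 was 0.73 per log2 unit (SE 0.15, adjusted p = 0.000254). It was the only member called, where 29.6% of all genes were. The slopes of Hist1h4m (0.61, SE 0.31, adjusted p = 0.133), Hist1h2an (0.34, SE 0.19, adjusted p = 0.175), Hist1h4n (0.18, SE 0.16, adjusted p = 0.409) and Hist1h2ao (-0.29, SE 0.18, adjusted p = 0.222) did not pass. The Hist1h2bp slope was 0.36 without the 99-week castrated DKO animal (adjusted p = 0.352), so it rests on that animal. Among other genes, 11 of 18 histone mRNA factors and 17 of 20 DNA replication genes had a positive slope past the test, with median slopes of 0.26 and 0.33. All 5 neuroendocrine markers did too, with a median of 1.87, and the part of that cell type was not tested. Ccne2 had 0.95, E2f1, a transcription factor of S phase genes, 0.74 and Slbp 0.39.

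Within settings the sign of the relation varied, and no test compared the settings. In 12-week animals (n = 12) r ran from 0.16 for Hist1h4n to 0.49 for Hist1h4m by Pearson, with adjusted permutation p from 0.434 to 0.803 over all genes (0.445% of genes called). Spearman's rho ran from 0.20 for Hist1h4n to 0.62 for Hist1h4m (p = 0.0341 by permutation, adjusted p = 0.279). With group means removed r was -0.02 for Hist1h4n, 0.14 for Hist1h4m and highest for Hist1h2bp, at 0.37. At intact endstage (n = 14) all 5 were negative, from -0.51 for Hist1h2bp (p = 0.0637 by permutation, adjusted p = 0.386) to -0.66 for Hist1h4m (p = 0.0103 by permutation, adjusted p = 0.2), and 0.24% of genes were called. Spearman's rho there was -0.31 (p = 0.275 by permutation) for Hist1h2bp and -0.48 (p = 0.088 by permutation) for Hist1h4m. Without the 2 animals farthest from the median Mki67, r was -0.34 and -0.67. Between them lay Hist1h2an (r = -0.59, p = 0.026 by permutation), Hist1h4n (r = -0.61, p = 0.0213 by permutation) and Hist1h2ao (r = -0.62, p = 0.0177 by permutation), with rho of -0.37, -0.44 and -0.49, none past adjustment. Mki67 spanned 13.68 to 14.88 there, a narrower range than the 10.80 to 14.29 of castrated endstage, and with group means removed r was -0.48 to -0.69.

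In castrated endstage animals (n = 14) Hist1h2bp had r = 0.96 (p = 0.0019 by permutation, adjusted p = 0.0513) and rho = 0.71 (p = 0.00563 by permutation, adjusted p = 0.189). Hist1h2an had r = 0.87 (p = 0.00108 by permutation, adjusted p = 0.0496) and rho = 0.66 (p = 0.0122 by permutation, adjusted p = 0.21), the one Pearson call among the members, where 3% of genes were called. Without the 2 farthest animals r was 0.61 and 0.56. For Hist1h4n r was 0.73 (p = 0.027 by permutation, rho 0.40) and 0.16 without those 2 animals, and for Hist1h4m 0.58 (p = 0.0207 by permutation, rho 0.58) and 0.28. Hist1h2ao had -0.54, and 0.18 without them. With group means removed r was 0.96 for Hist1h2bp, 0.87 for Hist1h2an, 0.66 for Hist1h4n and 0.38 for Hist1h4m. The 99-week animal had the lowest Mki67 of this setting. In castrated TKO (n = 8, exact permutation test) r was 0.73 for Hist1h4m (p = 0.0205, adjusted p = 0.235) and rho 0.90 (p = 0.00456, adjusted p = 0.38), with r = 0.81 without the 2 farthest animals. For the other members r was 0.70 (Hist1h4n), 0.65 (Hist1h2bp), 0.38 (Hist1h2an) and -0.08 (Hist1h2ao), none past adjustment. Without those 2 animals these values were 0.26, -0.28, 0.29 and -0.35. Of all genes, 0% were called there. The 4 settings and 5 genes make 20 relations of each kind.

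**Figure D4:**
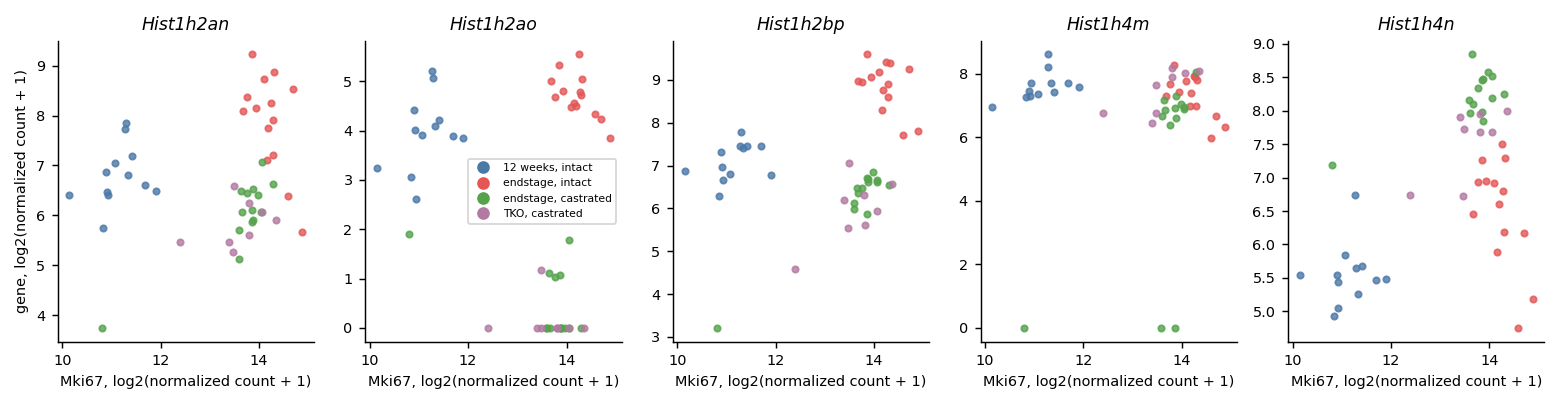
Each histone gene against Mki67, both as log2(normalized count + 1), with 1 point per animal coloured by setting. Over the range of Mki67 they share, 13.68 to 14.29, the intact endstage animals lie above the castrated ones for Hist1h2an (7.11 or more against 7.07 or less), Hist1h2ao and Hist1h2bp, and below them for Hist1h4n; the castrated animal at 10.80 stands apart.

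The members varied together at intact endstage. Over its 14 animals Pearson's r was 0.96 between Hist1h2an and Hist1h2bp, whose promoter windows overlap, and 0.95 between Hist1h4m and Hist1h4n, whose reads are shared. The other pairs there ran from 0.65 to 0.92. In castrated endstage animals (n = 14) Hist1h2an and Hist1h2bp had 0.89, and Hist1h4m and Hist1h4n 0.39. At 12 weeks (n = 12) these pairs had 0.81 and 0.67. The points share library depth and the authors' scaling, and the correlations are given as descriptions. The genes of the table most like the mean of the members, by the mean of the 4 within-setting r, were Abhd8 (0.70), Cenpl (0.68) and Mxd3 (0.68).

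Pieces from the same animal show how far a histone level can vary within it. In intact DKO_EE replicate 7, the piece labelled DP had 5.85 for Hist1h2an (65 reads) and the piece labelled LP 9.98 (1074 reads), a difference of 4.12, or 17.7-fold. The other members were higher in the LP piece as well, by 2.21 for Hist1h4n, 1.95 for Hist1h2bp, 1.92 for Hist1h2ao and 1.74 for Hist1h4m. Mki67 was 14.29 and 14.27 in the same pieces. In that animal 94.23 to 99.48% of all genes differed less between the pieces than a member did.

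Over the 6 animals with 2 pieces the median absolute log2 difference was 0.82 for Hist1h2an, 0.67 for Hist1h2bp, 0.60 for Hist1h4n, 0.47 for Hist1h4m and 0.22 for Hist1h2ao, against 0.18 for Mki67. In DKO_EE replicate 6, Lars2 took 18.73% of the reads in the piece labelled DP and 0.53% in the one labelled AP. Hist1h2an was 7.98 and 6.43 and Hist1h2bp 9.14 and 8.04 in those pieces. In DKO_EE replicate 8, Lars2 took 0.009 and 18.95% while Hist1h2bp was 9.31 and 9.06. The part of Lars2 was not tested. Which piece was higher did not follow one label across animals.

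**Figure D5:**
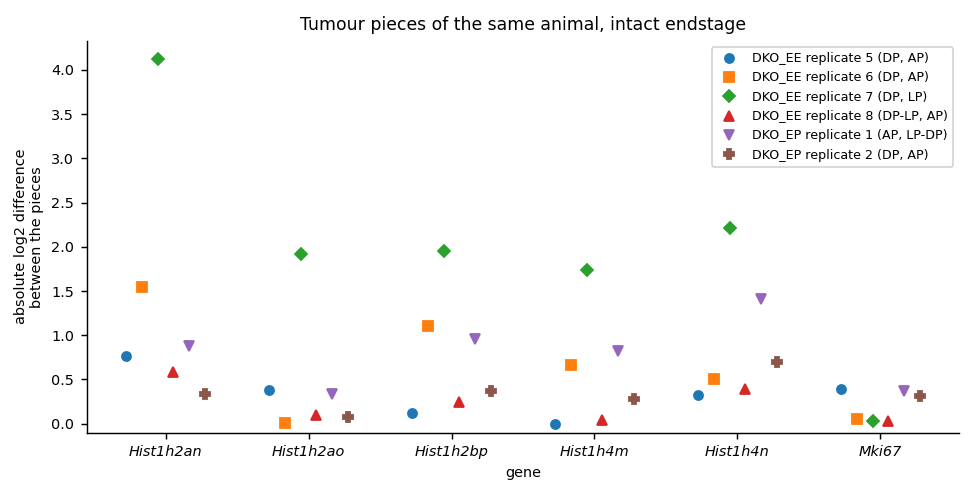
Absolute log2 difference between the 2 pieces of each of 6 intact endstage animals, for each histone gene and Mki67. Each animal has 1 symbol, and the legend gives the piece labels. DKO_EE replicate 7 has the largest difference for each histone gene, up to 4.12 for Hist1h2an, while no animal exceeds 0.40 for Mki67.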

How the data were processed

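Bulk RNA was sequenced after library preparation, per the labels, with the RNA HyperPrep Kit with RiboErase. The submitters' processing notes name STAR, RSEM, FastQC, DESeq2 and limma (no versions or roles) and, as builds, mm10 and GRCm38. The values are log2 of a normalized count plus 1, as deposited by the authors. Dividing by each library's smallest step gave reads (100% of values within 0.05 of whole numbers), and 8.92% of values were at 0. The table has 56 columns, of which 2 match no sample and were not used. Pieces of 1 animal were averaged.

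Groups were compared with limma 3.58.1 in R 4.3.3 (variance trend), within a setting in one fit per setting, otherwise in one fit of all 11 groups. Named were the 5 members, up to 2 called genes of smallest p per list, and the 3 genes most like the members. Members and lists were chosen with earlier results of these data known. Correlations used 100000 permutations, or all of them for TKO. Alternatives were the offset, quantile normalization, limma-voom on the reads, the groups fitted together, age or Mki67 as a covariate, and animals or pieces left out. The fits were tested on simulated data. Labels do not say that animals were handled apart, so p-values measure the spread between these animals.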

Additional observations from a re-analysis of the deposited data

Results flagged for a closer look

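In 54 checks of single animals against their group (groups of 4 to 10 animals, 5 histone genes and Mki67), 5 stood apart by Dixon's test at the 95% level, where chance alone marks about 1 group in 20. Hist1h4m was at 6.93 in castrated DKO replicate 4 and at 0 in the other 3 animals of that group. Hist1h2ao was at 1.03 in castrated DKO_EE replicate 3 and at 1.17 in CPI1688-treated TKO replicate 4, which is 1 read each where the others of the group had 0. Where all other animals of a group are at 0, as for these Hist1h2ao and Hist1h4m values, any value above 0 stands apart. The rate of 1 in 20 does not hold there. Mki67 was at 11.90 in 12-week DKO_EE replicate 4, above the others, and at 10.80 in castrated DKO replicate 2, the 99-week animal, below the others.

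The change of Hist1h4m with castration differed between genotypes by the interaction test of limma, by 6.20 on the log2 scale in DKO_EE against DKO and by 5.79 in DKO_EP against DKO. Both rest on the 3 castrated DKO animals with 0 reads of this gene.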

How the results depend on the processing

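Of 213 values of single genes under the alternatives other than leaving out an animal, 175 kept their direction and their side of the threshold, and of 169 counts of called members 147 stayed within 1.5 times. With one animal left out these were 185 of 221 and 161 of 189. The cause of the changes was not tested. With Mki67 as a covariate the counts for progression were 0 in DKO, DKO_EE and DKO_EP, the Hist1h2bp change reversed to -0.12, -0.80 and -0.054 (1.01, 0.27 and 0.95 without the 99-week animal), and the counts were 1 in castrated DKO_EE against DKO and 0 in the DKO_EP castration interaction. With that covariate and without the 99-week animal these 5 counts were 0. That interaction count was also 0 with offset 10, limma-voom, the first library per animal, and fits of only the groups compared. Fits of only the groups compared gave 0 for the DKO_EE interaction and for TKO vehicle against DKO, and all groups in one fit gave 1 for castrated DKO_EP against DKO. Age as a covariate gave 0 in castrated DKO_EE against DKO, and the first library per animal gave 2 in DKO_EP progression. The count of slopes on Mki67 was 3 with quantile normalization, 0 without the 2 farthest animals and 0 without the 99-week animal. Leaving out one animal gave 1 to 4 in DKO_EP progression, 1 to 2 in castrated DKO_EE against DKO, 0 to 1 in castrated DKO_EP against DKO, and 0 to 1 in each castration interaction. Leaving out each intact DKO_EE animal and the 99-week animal, also with the covariate, was chosen after seeing the data. Leaving out libraries with over 10% Lars2 left no intact DKO_EP animal, so it gave no value there. No paired analysis was possible because the labels give the animals no shared numbers. Genes with few reads, Hist1h2ao above all, are limited by depth.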

Other observations

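Castrated DKO replicates 1, 2 and 3 are the 3 libraries with Hist1h4m at 0, and the other 51 libraries held 34 reads or more of it. Of all genes of the table, 2 were at 0 in exactly these 3 libraries and above 0 in every other one, and Hist1h4m was the only one of them with at least 10 reads in every other library. This search was chosen after its values were seen.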
